A study of Oryza sativa with 16 samples.

Results

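The short-arm ends of rice chromosomes 11 and 12 were compared for open chromatin in seedlings under 7 growth conditions. Open chromatin was mapped by FAIRE-seq, in which crosslinked and sheared chromatin is extracted with phenol-chloroform and the DNA that stays free of protein is sequenced. The peaks of the 7 deposited lists, 1 per condition, were merged into 119009 regions wherever they overlapped or touched, and a region was taken as a member when its midpoint lay in the first 3 Mb of chromosome 11 or of chromosome 12. This gave 1006 regions on chromosome 11 and 970 on chromosome 12, 1976 in all. No measured level entered this choice, but a merged region exists only where at least 1 list has a peak.

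All seedlings were 14-day-old Nipponbare, the Japonica cultivar of the reference genome, and none carried a transgene or mutation by the labels. Control seedlings were grown at 28 °C. Cold was given at 4 °C for 12 h or 24 h, heat at 42 °C for 30 min or 3 h, and salt as 250 mM NaCl for 2 h or 6 h. Each condition had 2 FAIRE-seq libraries from seedlings. The methods do not say which parts of the seedlings were taken, so the tissues behind a peak cannot be told apart. The authors deposited 1 peak list for both libraries of a condition. The lists thus carry no replicate error, no p-value was computed, and the read depth of the libraries is unknown from them. Intervals given here are 95% Wilson intervals over regions and cover counting error only.

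The ends of these chromosomes carry one of the best known duplications in the rice genome. Their genes lie in matching order, and gene conversion between both copies has kept many of the gene pairs alike. The pair was first read as a recent segmental duplication, and later comparisons with other cereals traced it to the whole-genome duplication that the grasses share. Open chromatin marks promoters and enhancers, so the pair allows copies of one segment to be compared within the same nuclei. Gene positions and sequence of the authors' build, IRGSP 1.0, were not used here, so regions are named by their coordinates on that build and no gene is assigned to them.

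Both segments had nearly the same amount of open chromatin. Merged regions covered 979 kb of the chromosome 11 segment, which is 32.6% of its length, and 963 kb of the chromosome 12 segment, which is 32.1%. There were 335 regions per Mb on chromosome 11 and 323 per Mb on chromosome 12. The median region was 787 bp wide on chromosome 11 and 776 bp on chromosome 12, against 762 bp over the whole genome. Neighbouring regions were a median of 1284 bp apart on chromosome 11 and 1311 bp apart on chromosome 12. Regions wider than 3 kb were few, with 20 in each segment. These make up 1.99% of the chromosome 11 regions and 2.06% of the chromosome 12 regions, while 2.75% of all regions of the genome were that wide.

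The most visible feature of both segments was a bare chromosome end. The first 100 kb of chromosome 11 held 5 regions that covered 3.88 kb, and the first 100 kb of chromosome 12 held 2 regions that covered 1.86 kb. On the other 10 chromosomes the first 100 kb held between 11 and 39 regions, covering from 10.1 to 42.4 kb with a median of 34.7 kb. Over this first 100 kb, chromosomes 11 and 12 thus had the lowest cover of the 12 chromosomes. Of the 3727 windows of 100 kb in the genome, 66 had less cover than the first window of chromosome 11 and 36 less than that of chromosome 12. In the second window cover rose to 29.7 kb on chromosome 11. On chromosome 12 it rose to 20.95 kb, still below the lower quartile of all windows, 27.8 kb, with no region in its last 20 kb. The second window of chromosome 9 held less, with 11.6 kb. Reads with a mapping score under 10 had been removed by the authors, and a read that matches both chromosomes equally well gets a low score. Mapping scores were not used here, and their part in the bare ends was not tested.

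**Figure D1:**
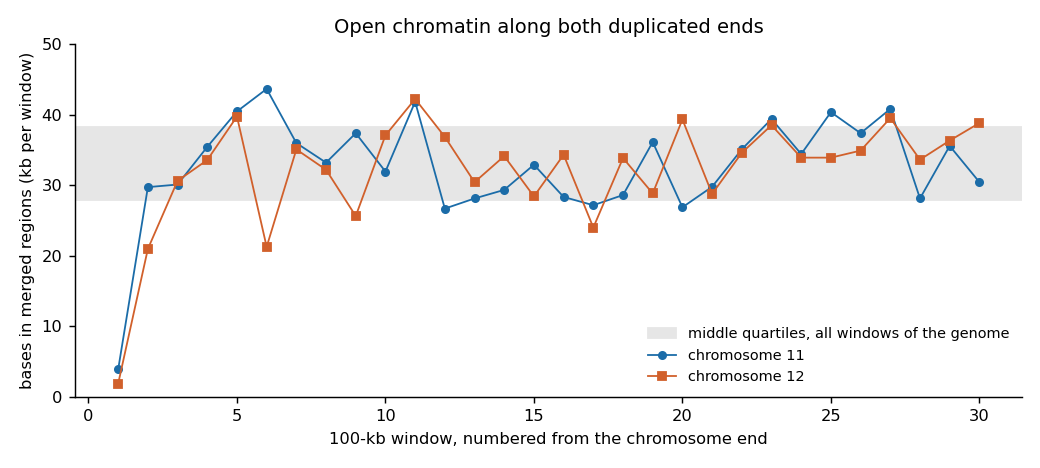
Bases in merged regions (kb) in each of the 30 windows of 100 kb, numbered from the chromosome end, for chromosome 11 (circles) and chromosome 12 (squares); the grey band runs from the lower to the upper quartile of all windows of the genome, 27.8 to 38.3 kb. The first window lies at 3.88 kb on chromosome 11 and 1.86 kb on chromosome 12, and the profiles part most in window 6, with 43.6 and 21.3 kb.

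The strongest peaks of the bare ends lay at the very tip. On chromosome 11 the region at chr11:1402-2784 had a peak in all 7 lists. Its fold enrichment, the MACS2 estimate of read pileup over local background, was 4.65 in control, 3.58 after cold 12 h, 4.71 after cold 24 h, 3.58 after heat 30 min, 4.42 after heat 3 h, 4.97 after salt 2 h and 6.05 after salt 6 h. These values are not normalized between lists, so each was ranked within its own list, where the region stood between the percentiles 96.9 and 99.5. It was among the strongest peaks in every condition. On chromosome 12 the matching place held the region chr12:1530-3160, also in all 7 lists, with a fold enrichment of 3.25 in control and 4.50 after salt 6 h. Its rank ran from percentile 60.1 after heat 3 h to 87.8 in control, below that of the chromosome 11 region in each list. A second tip region on chromosome 11, chr11:3475-4752, was also in all 7 lists, and chromosome 12 had no region at that distance from its end.

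Behind the tip, long stretches had no region in any condition. The longest ran over 58.5 kb on chromosome 11 (chr11:49217-107752) and over 60.0 kb on chromosome 12 (chr12:3161-63195), followed on chromosome 12 by 40.1 kb more (chr12:63425-103545). Next in length were 26.3 kb (chr11:2077962-2104237) and 22.4 kb (chr11:4753-27145) on chromosome 11, and 32.9 kb (chr12:172417-205300) on chromosome 12. The few regions inside the bare ends were narrow and were missing from some of the lists. The region chr11:47419-47827 had a peak only after heat 3 h, salt 2 h and salt 6 h, and chr12:63196-63424 only after cold 24 h, heat 3 h and salt 6 h. The regions chr11:27146-27488 and chr11:48747-49216 were in every list but heat 30 min. Their highest rank within any list was percentile 64.1, so none of the 4 was a strong peak.

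Where open chromatin resumed, the first few regions seen in more than 1 list had like spacing on both chromosomes, but the next region did not keep it. Regions farther on were not set side by side in this way. The first 4 regions with a peak in more than 1 list began at chr11:107753 and at chr12:103546, and they lay 4.18, 4.27, 4.40 and 4.15 kb farther from the end on chromosome 11 than on chromosome 12. Their widths were 479, 764, 983 and 1493 bp on chromosome 11 and 524, 844, 783 and 1408 bp on chromosome 12. The first of them was in all 7 lists on both chromosomes, with control fold enrichments of 2.77 and 3.58. The fourth was in every list but heat 3 h on both chromosomes. The second and the third were missing after heat 3 h on chromosome 11 only. On chromosome 12 they were present in that list, at the percentiles 23.1 and 14.8 of its fold enrichments. The fifth regions, chr11:126197-127702 and chr12:124670-127480, broke the spacing. Their midpoints were 0.87 kb apart and their widths 1506 and 2811 bp. The position scan described next placed the best shift of the window that holds all of these at 72.6 kb. The set of 4 was picked after its positions had been seen, and it carries no test. It leaves out chr12:105094-105300, which had a peak after salt 6 h only, at percentile 36.8. This region lay between the first 2 of the set on chromosome 12, where chromosome 11 had none. Counted in order with it, the regions of both chromosomes would fall out of step from the second on.

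A scan of positions found no matching order of regions above that between other chromosomes. It cannot show that such an order is absent, as it did not recover the like spacing described above. Each window of chromosome 11 was slid along chromosome 12 over shifts of up to 400 kb, and the highest Pearson's r between their cover in 200-bp steps was kept. The median over the 30 windows was 0.27, and it was 0.28 when chromosome 12 was read in the inverted direction. In 20 scans of either segment against the first 3 Mb of the other chromosomes, the medians lay between 0.25 and 0.28. The best window of each of these scans had r between 0.31 and 0.43. The highest of these was also a first window, that of chromosome 11 on chromosome 9. Between chromosomes 11 and 12 the only window that stood out was the first, with r of 0.54 at a shift of 0.2 kb. There both chromosomes are bare but for the tip. In none of the 29 pairs of neighbouring windows were the best shifts within 5 kb of each other. Single regions of chromosome 11 were therefore not paired with regions of chromosome 12, and the comparisons that follow are between the segments as wholes. That the segments are copies is background knowledge and not a result of these lists.

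**Figure D2:**
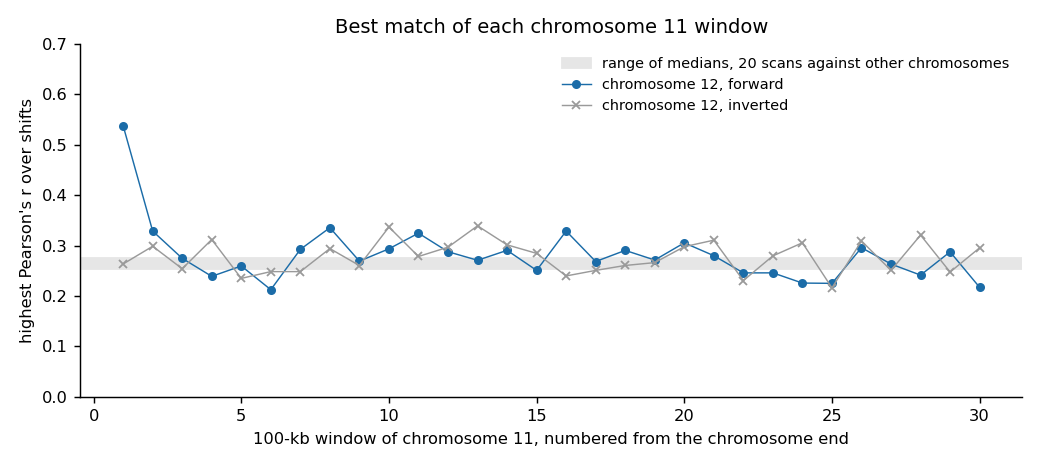
Highest Pearson's r of each 100-kb window of chromosome 11 (numbered from the chromosome end) over all shifts on chromosome 12, in forward (circles) and inverted direction (crosses); the grey band spans the medians of 20 scans against other chromosomes. Window 1 reaches 0.54, and the forward median of 0.27 lies beside the inverted median of 0.28.

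The cover of windows at the same distance from the end was alike mostly through the bare first window. Over 30 windows Pearson's r between the segments was 0.60 and Spearman's rho 0.28. At this window size none of the 66 pairs of chromosome starts had a higher r, and the median pair had -0.02, with the first window included. Without the first 100 kb r between the segments fell to 0.14 and rho to 0.21. The windows share the same 7 lists and neighbouring windows are not independent. The most open windows of chromosome 11 were window 6 with 43.6 kb and window 11 with 41.8 kb. On chromosome 12 these were window 11 with 42.2 kb and window 5 with 39.7 kb. Besides the first windows, the least cover was found in window 12 of chromosome 11, with 26.7 kb, and in window 2 of chromosome 12, with 20.95 kb. Window 6 differed most between the segments, at 43.6 kb on chromosome 11 and 21.3 kb on chromosome 12. Chromosome 12 had the higher cover in window 20, with 39.3 against 26.9 kb, and chromosome 11 in window 9, with 37.4 against 25.6 kb.

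Across the conditions the 2 segments moved together. In control seedlings peaks covered 667 kb of the chromosome 11 segment and 674 kb of the chromosome 12 segment. After cold 12 h the cover was 809 kb on chromosome 11 and 794 kb on chromosome 12, and after heat 30 min 784 and 767 kb. Cold 24 h stayed near control, with 689 and 699 kb, as did salt 2 h, with 645 and 649 kb. The lowest cover was seen after heat 3 h, with 580 and 575 kb, and after salt 6 h, with 538 and 552 kb. The order of the 7 lists by cover was the same on both chromosomes. It was also the order over the whole genome, where the cover relative to control ran from 82.8% after salt 6 h to 116% after cold 12 h. The lists had the same order by number of peaks, from 87437 after salt 6 h and 99518 in control to 110010 after cold 12 h. With 87437 peaks taken from every list, chromosome 11 cover was 242 kb per Mb after cold 12 h, 207 in control and 179 after salt 6 h. On chromosome 12 it was 233, 207 and 184. With the full lists these values were 270, 222 and 179, and 265, 225 and 184.

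Neither segment was higher throughout. Chromosome 11 had more cover than chromosome 12 by 14.8 kb after cold 12 h, by 17.2 kb after heat 30 min and by 4.59 kb after heat 3 h. It had less in the other lists, with a difference of -6.89 kb in control, -10.1 kb after cold 24 h, -3.84 kb after salt 2 h and -14.3 kb after salt 6 h. The cover of chromosome 11 was thus between 97.4% and 102% of that of chromosome 12. Over the 30 window pairs the SD of the difference was between 4.99 and 6.23 kb, while its mean was between -0.48 and 0.57 kb. When the first 2 windows were left out, the difference after heat 3 h turned to -0.74 kb. Of the 66 pairs that can be formed from the 12 chromosome starts, between 1 and 10 had a smaller difference in covered length in the 7 lists. On other measures the number of closer pairs varied widely with the list. In the 6 stress lists, 7 to 33 pairs were closer in cover relative to control. For the share gained this was 4 to 44, and for the share lost 9 to 34. Over the 7 lists, 3 to 43 pairs were closer in the share of regions with a peak and 0 to 49 in median peak width. For the median percentile of peaks it was 1 to 25, and for the share of peaks in the top 10% of a list 16 to 35.

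**Figure D3:**
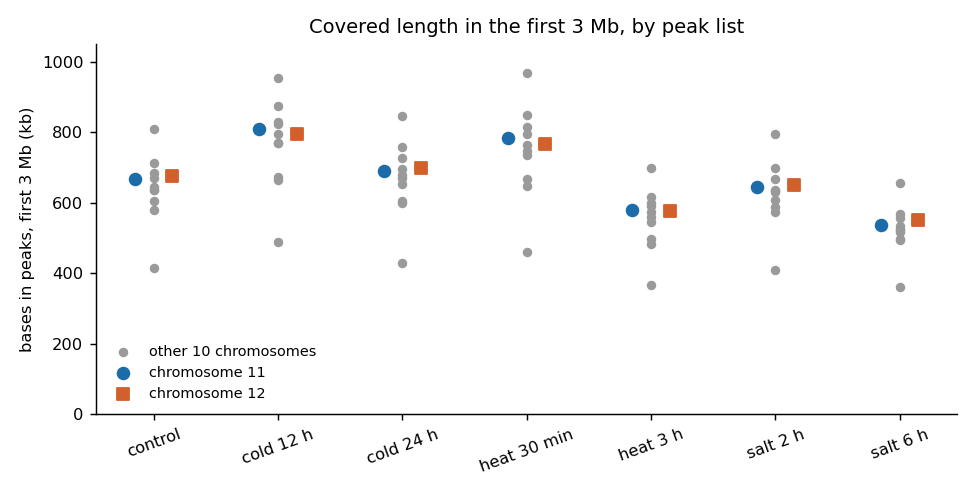
Bases covered by peaks (kb) in the first 3 Mb of chromosome 11 (circles), chromosome 12 (squares) and the other 10 chromosomes (grey points), for each of the 7 lists. The chromosome 11 and 12 values are 667 and 674 kb in control, rise to 809 and 794 kb after cold 12 h and fall to 538 and 552 kb after salt 6 h, within the range of the other chromosomes.

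The changes were spread along the segments. Over the whole genome, cover was 116% of that of control after cold 12 h and 115% after heat 30 min. It was 84.4% after heat 3 h and 82.8% after salt 6 h. Windows outside the segments were not set against control in this way. After heat 30 min cover was above control in 30 of 30 windows on both chromosomes, by a mean of 3.89 ± 1.79 kb per window on chromosome 11 and 3.09 ± 1.63 kb on chromosome 12 (SD over windows, not over replicates). After cold 12 h it was above control in 28 windows of chromosome 11 and in 29 of chromosome 12. After salt 6 h it was below control in 29 and 30 windows, and after heat 3 h in 29 and 28. The exception on chromosome 11 was the bare first window in both of these lists, where cover was 0.63 kb above control after salt 6 h and 0.44 kb above it after heat 3 h. Cold 24 h and salt 2 h had windows on both sides, with 20 of 30 above control after cold 24 h on chromosome 11 and 23 of 30 on chromosome 12. Salt 2 h was below control in 23 and 24 windows. The deepest loss of any window was -8.47 kb on chromosome 11, in window 27, and -9.27 kb on chromosome 12, in window 30, both after salt 6 h.

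**Figure D4:**
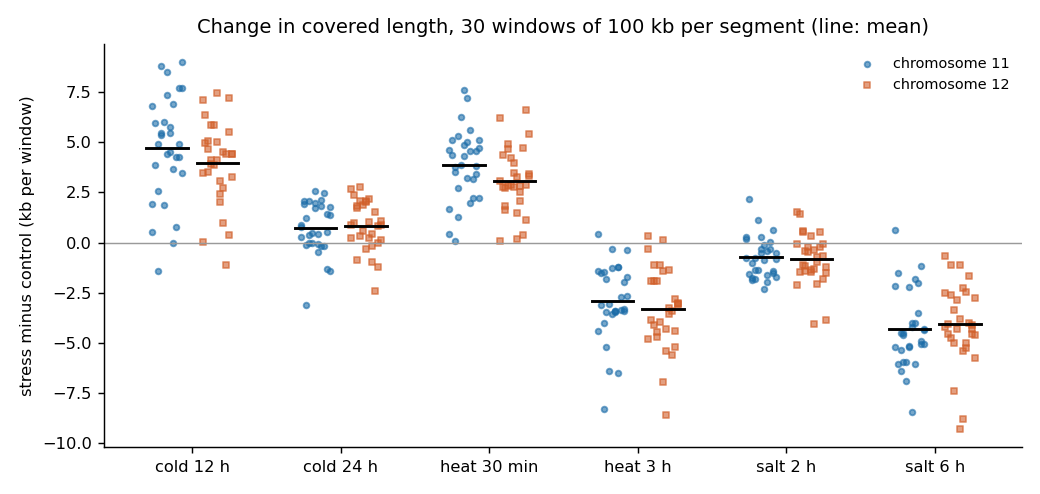
Stress minus control cover (kb per window) in 30 windows of 100 kb on chromosome 11 (circles) and chromosome 12 (squares) for the 6 stress lists, with black lines at the means. All 30 windows of each segment lie above 0 after heat 30 min, and 29 and 30 windows lie below 0 after salt 6 h.

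A core of regions was open under all conditions. On chromosome 11, 583 of 1006 regions (58.0%, interval 54.9% to 61.0%) had a peak in all 7 lists, and on chromosome 12, 573 of 970 (59.1%, 55.9% to 62.1%). Over the genome this share was 57.4%, so the count of members is near the background. These core regions were wide, with a median of 1131 bp on chromosome 11 and 1162 bp on chromosome 12, while the remaining regions had medians of 412 and 401 bp. Over the genome these medians were 1140 and 403 bp. Merging peaks of more lists tends to give a wider region by construction. Regions with a peak in exactly 1 list numbered 110 on chromosome 11 and 114 on chromosome 12, which is 10.9% and 11.8% beside a genome share of 11.2%. Their median widths were 256 and 243 bp. Most of them belonged to cold 12 h, with 66 on chromosome 11 and 67 on chromosome 12, and to heat 30 min, with 28 and 21. As shares these are 6.56% and 6.91% for cold 12 h, beside 6.25% of all regions, and 2.78% and 2.16% for heat 30 min, beside 2.17%, so both are near the background. The control list alone held 6 on chromosome 11 (0.596%) and 9 on chromosome 12 (0.928%), beside 0.868% of all regions.

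Core regions also changed in width. After salt 6 h 414 of the 583 core regions on chromosome 11 (71.0%) and 412 of the 573 on chromosome 12 (71.9%) had fewer covered bases than in control, and after heat 3 h these were 402 (69.0%) and 397 (69.3%). The median log2 ratio of covered bases to control was -0.10 on chromosome 11 and -0.09 on chromosome 12 after salt 6 h. After heat 30 min more core regions were wider than narrower, with 384 (65.9%) on chromosome 11 and 369 (64.4%) on chromosome 12. After cold 24 h the wider regions were 50.9% on chromosome 11 and 57.2% on chromosome 12. For all core regions of the genome the share of wider regions was 62.9% after heat 30 min and 50.7% after cold 24 h, and that of narrower ones was 69.4% after salt 6 h and 70.3% after heat 3 h.

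Against the control list, cold 12 h brought the most new regions. A region was counted as gained when the stress list had a peak in it and the control list had none, and as lost in the reverse case. All 6 comparisons share the control list. Cold 12 h gained 165 regions on chromosome 11 (16.4%, interval 14.2% to 18.8%) and 151 on chromosome 12 (15.6%, 13.4% to 17.98%), where 15.4% of all regions were gained. Heat 30 min gained 125 (12.4%) and 104 (10.7%), beside a genome share of 11.8%. Cold 24 h gained 58 (5.77%) and 61 (6.29%), beside 6.03%, and heat 3 h 48 (4.77%) and 46 (4.74%), beside 4.76%. Gains after salt were the fewest in these lists, an order that depended on the length of the lists. Salt 2 h gained 22 (2.19%, interval 1.45% to 3.29%) and 30 (3.09%, 2.17% to 4.38%), where the genome share was 3.54%. For salt 6 h the counts were 19 (1.89%, 1.21% to 2.93%) and 24 (2.47%, 1.67% to 3.66%), beside 3.17%. The chromosome 11 shares were the lowest of the 12 chromosome starts in both salt lists, but these counts were not stable. With the same number of peaks taken from every list, salt 6 h gained 61 regions on chromosome 11 and 70 on chromosome 12, above the 56 and 60 of cold 24 h, and salt 2 h gained 41 on each. On chromosome 11 a region cover of at least 50% gave salt 2 h 43 gains and salt 6 h 33, and dropping peaks below 2 in −log10 q gave 35 for salt 2 h. The rank among chromosome starts was not computed under these settings.

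Losses were largest after the longer heat and salt treatments. After salt 6 h 144 regions were lost on chromosome 11 (14.3%, interval 12.3% to 16.6%) and 126 on chromosome 12 (12.99%, 11.02% to 15.3%), where 13% of all regions were lost. After heat 3 h 118 regions were lost on each chromosome, 11.7% on chromosome 11 and 12.2% on chromosome 12, beside 12.9%. Salt 2 h lost 63 (6.26%) and 55 (5.67%), beside 5.37%. Cold 12 h lost 48 (4.77%) and 49 (5.05%), beside 5.87%. For cold 24 h these were 39 (3.88%) and 32 (3.30%), beside 4.13%, and for heat 30 min 23 (2.29%) and 26 (2.68%), beside 3.58%. The intervals of both segments overlapped in each of the 12 counts. The differences themselves were not tested.

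**Figure D5:**
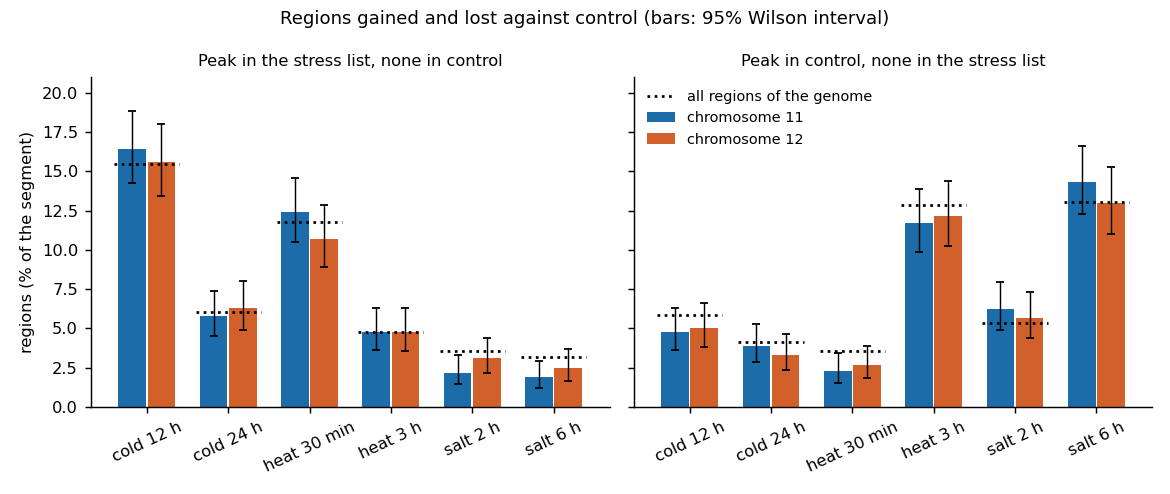
Share of regions (% of each segment) gained (left) and lost (right) against control in the 6 stress lists, for chromosome 11 and chromosome 12 with 95% Wilson intervals, and for all regions of the genome (dotted lines). Gains are highest after cold 12 h, with 16.4% and 15.6%, and losses after salt 6 h, with 14.3% and 12.99%.

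Some regions were gained in several conditions. Regions that were absent from control and present after both cold 12 h and heat 30 min numbered 89 on chromosome 11 (8.85%) and 74 on chromosome 12 (7.63%), where the genome share was 8.56%. Those open only in these 2 lists were 42 (4.17%) and 32 (3.30%), beside 3.88%. Regions of the control list that were missing after both heat 3 h and salt 6 h came to 76 (7.55%) and 72 (7.42%), beside 7.75% of all regions. No region of chromosome 11 and 3 regions of chromosome 12 were absent from control and present after all 6 stresses, beside 0.243% of all regions. A count of 0 in 1006 regions gives an interval of up to 0.380%, which includes the genome share.

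The 3 regions of chromosome 12 that only the control list lacked were weak. At chr12:1628734-1629096 the fold enrichment was 1.61 after cold 12 h, 1.92 after cold 24 h, 1.83 after heat 30 min, 2.10 after heat 3 h, 2.04 after salt 2 h and 2.66 after salt 6 h. Its ranks were between the percentiles 15.3 and 36.9 of the lists. The region chr12:1884645-1884909 stood between the percentiles 4.04 and 37.6, and the wider region chr12:2403412-2404451 between 0.203 and 5.23. On chromosome 11 the regions nearest to this pattern were present in 5 stress lists. The regions chr11:1907022-1907326 and chr11:1258571-1259356 were missing from control and cold 12 h, and chr11:2752171-2752861 from control and salt 6 h.

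Regions seen in a single list were narrow as well. The highest-ranked of them on chromosome 11 were chr11:964319-964535, with a fold enrichment of 2.20 after cold 12 h only, chr11:2863102-2863345, with 2.46 after heat 30 min only, and chr11:2968374-2968613, with 2.15 after cold 12 h only. On chromosome 12 they were chr12:2221500-2221777, with 2.38 after cold 12 h only, chr12:2471406-2471639, with 2.64 after heat 30 min only, and chr12:334314-334529, with 2.15 after cold 12 h only. Their percentiles in their own lists were between 69.3 and 82.6. The control-only regions of highest rank were chr11:1987222-1987478, at percentile 55.5 with a fold enrichment of 2.46, and chr12:215116-215361, at percentile 59.8 with 2.53. After them came chr11:644198-644419 and chr11:1636580-1636782 on chromosome 11, and chr12:1625390-1625589 and chr12:2342170-2342371 on chromosome 12, between the percentiles 21.3 and 40.9. Both segments thus had single-list regions of moderate rank, but those named were the highest-ranked by choice. The median percentile of all regions seen only after cold 12 h was 21.2 on chromosome 11 and 19.3 on chromosome 12. For heat 30 min these medians were 17.5 and 10.7. All 6 stress cases named came from these 2 lists, which held the most single-list regions.

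The strongest regions of control seedlings stayed strong in every condition. On chromosome 11 the highest control fold enrichment was 5.81 at chr11:2850429-2851546, a region of 1118 bp. It was 3.77 after cold 12 h, 4.78 after cold 24 h, 4.42 after heat 30 min, 5.64 after heat 3 h, 5.56 after salt 2 h and 6.38 after salt 6 h. The region stood between the percentiles 99.4 and 99.9 in the lists, and its covered bases stayed between 1020 and 1117. It was followed by the 503-bp region chr11:2716398-2716900, with 5.21 in control, and by chr11:1714725-1716052, with 5.16. In the latter, covered bases were 492 in control, 1314 after cold 12 h and 1273 after heat 30 min, but between 418 and 491 in the other stress lists.

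On chromosome 12 the highest control value was 5.76 at chr12:1255602-1257797, where the percentile was between 94.0 after heat 3 h and 99.9 in control. The second, chr12:306850-308528, had a fold enrichment of 5.40 in control, 2.93 after cold 12 h, 4.83 after cold 24 h, 3.39 after heat 30 min, 4.08 after heat 3 h, 7.51 after salt 2 h and 8.71 after salt 6 h. In both salt lists it was the highest value of the segment and the region was at its narrowest, with 689 covered bases after salt 2 h and 658 after salt 6 h against 1174 in control. The third was chr12:2460190-2461982, with 4.83 in control. It too was narrowest after salt 6 h, with 783 covered bases.

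The widest core regions were not those of highest enrichment. The widest core regions of chromosome 11 were chr11:1061102-1066036, with 4935 bp, chr11:2302595-2307077, with 4483 bp, and chr11:260180-264515, with 4336 bp. Their control percentiles were 58.4, 38.2 and 87.3. In the first of them, peaks covered 4026 bases in control, 4007 after cold 12 h, 4549 after cold 24 h, 4908 after heat 30 min, 1892 after heat 3 h, 3861 after salt 2 h and 1541 after salt 6 h. Heat 3 h and salt 6 h thus left less open there than any other list. In the second, the low value was that of salt 6 h, with 2488 covered bases, while heat 3 h had 4220. The widest regions of chromosome 12 were chr12:2078172-2083375, with 5204 bp, chr12:1938667-1943197, with 4531 bp, and chr12:363717-367675, with 3959 bp. Their control percentiles were 4.83, 67.6 and 7.07. In the first of these, peaks covered 4624 bases in control, 3741 after heat 3 h and 4181 after salt 6 h. In the second the values were 2170, 1534 and 1879, and in the third 3253, 3298 and 3823. The third chromosome 11 region had 1875 bases in control, 1507 after heat 3 h and 1364 after salt 6 h. Of these 6 regions, 4 were thus narrower than in control in both lists.

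Peaks of both segments ranked somewhat above the middle of their lists. In control, the median peak stood at percentile 58.4 on chromosome 11 and 58.0 on chromosome 12, while 1 of the other 10 chromosome starts was above the first of these values and 2 above the second. After heat 3 h the medians were lowest, at 51.9 and 50.1. The share of peaks among the top 10% of their own list was between 9.09% and 11.4% on chromosome 11 and between 10.4% and 12.9% on chromosome 12. The median peak width was between 588 and 709 bp on chromosome 11 and between 578 and 685 bp on chromosome 12.

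Likeness to control followed that of the whole genome. The Jaccard index, the bases covered in both lists over those covered in at least 1 of them, was highest for salt 2 h, with 0.840 on chromosome 11 and 0.827 on chromosome 12. Cold 24 h followed with 0.822 and 0.815, then heat 30 min with 0.750 and 0.760, salt 6 h with 0.720 and 0.724 and heat 3 h with 0.702 and 0.697. Cold 12 h was least like control, with 0.660 and 0.678. The order of the 6 lists was the same on both chromosomes and over the whole genome, where the index fell from 0.830 in salt 2 h to 0.811 in cold 24 h, 0.755 in heat 30 min, 0.722 in salt 6 h, 0.683 in heat 3 h and 0.677 in cold 12 h. Of the 66 pairs of chromosome starts, between 7 and 39 were closer in this index in the 6 lists.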

How the data were processed

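FAIRE-seq peak lists of 7 conditions, each made from 2 libraries, were analysed; the RNA-seq libraries were not used here. Per the methods of the study, the authors aligned reads to IRGSP 1.0 with Bowtie2 and removed reads at known organelle insertions, duplicates and reads with a mapping score under 10. They called broad peaks with MACS2 and removed peaks under 1 RPM in any replicate, and how the replicates were combined is not stated. The deposited fold enrichment is a ratio over local background. The deposited −log10 q was used as a filter only, and the deposited −log10 p and score were not used. Depth per library is unknown from the lists.

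Peaks were merged with Python 3.11.15, numpy 2.4.6 and pandas 2.3.3, the window shifts were scanned with numba 0.67.0, and intervals came from scipy 1.17.1. Figures were drawn with matplotlib 3.10.9. A peak of at least 1 bp in a region counted as present. The functions were tested on simulated intervals and against bedtools 2.31.1, and 6 of 6 known quantities were recovered. Named regions were the 3 highest of each segment by width in all lists, by control fold enrichment, by rank among single-list regions, by number of stress lists without control and by absence from stress lists, with the 3 longest gaps and extreme windows. Alternatives were a stricter q, peaks merged within 200 bp, 50% cover, equal list lengths, other windows and shorter segments. Regions at the chromosome ends were added after their values had been seen. Members and rules were chosen with earlier results of these data known. The planned condition patterns of paired regions were not computed, as no run of windows shared a shift.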

Additional observations from a re-analysis of the deposited data

How the results depend on the processing

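No paired analysis was possible because each deposited list holds both replicates of its condition, and for the same reason no replicate could be left out. Counts and lengths were taken as changed beyond 1.5 times, shares beyond their interval, the Jaccard index and the best r beyond their SD over windows and the profile r beyond 0.1. Cover of chromosome 11 ran only from 80.6% of control after salt 6 h to 121% after cold 12 h. A limit of 1.5 times cannot register the loss of such differences. Lengths counted as unchanged therefore do not show that the differences between conditions hold. Merging peaks within 200 bp, segments of 2 Mb and leaving out the first 110 kb, the last chosen after the data were seen, changed none of the 2, 18 and 32 results computed. Of 68 results, the limit of 2 on −log10 q changed 1, the 22 gains of salt 2 h on chromosome 11, to 35. With 87437 peaks in every list, 8 of 54 changed. On chromosome 11, heat 3 h then had 80 gains, salt 2 h 41 and salt 6 h 61. On chromosome 12, cold 12 h had 97 gains, heat 3 h 77 and salt 6 h 70. Heat 30 min had 55 losses on chromosome 11 and 59 on chromosome 12. Lists of equal length bring gains and losses closer by construction.

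Counting a region as open only when at least 50% of it was covered changed 25 of 40 results. All-list regions fell to 40.7% on chromosome 11 and 40.8% on chromosome 12. In control, 66.5% of chromosome 11 regions and 68.6% of chromosome 12 regions were then open. These shares were 85.4% and 83.9% after cold 12 h, 69.5% and 72.5% after cold 24 h, 82.4% and 81.3% after heat 30 min, 56.5% and 57.5% after heat 3 h, 62.1% and 64.8% after salt 2 h, and 50.7% and 53.1% after salt 6 h. On chromosome 11, cold 12 h had 258 gains, heat 30 min 194, salt 2 h 43 and salt 6 h 33. On chromosome 12, cold 24 h had 94 gains and 56 losses, salt 2 h 51 and 87, and heat 30 min 162 gains. By construction this rule can only lower the share of open regions.

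The likeness of the window profiles depended on the windows. Pearson's r was 0.40 with windows of 50 kb, 0.75 with 200 kb and 0.14 without the first 100 kb, the last chosen after the data were seen. With windows of 50 kb, 1 of the 66 pairs of chromosome starts had a higher r, at 0.43. With 200 kb none had. The median best r of the shifted windows was 0.38 with 50 kb and 0.21 with 200 kb. The lists hold no replicate values, so differences smaller than the variation between seedlings cannot be recognised.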
